A study of Mus musculus with 12 samples.

Results

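Tissue factor, its inhibitors, thrombomodulin, a pair of platelet adhesion proteins, the plasminogen activators and the urokinase receptor make up the group of 9 genes described here (F3, Tfpi, Tfpi2, Thbd, Vwf, Thbs1, Plat, Plau and Plaur). They were chosen by name as genes that start, restrain or dissolve a clot at the cell surface, and each symbol matched 1 row of the 45777 genes in the deposited expression table. RNA had been sequenced from 12 whole livers of male C57BL/6 mice labelled 10 to 12 weeks old, 3 livers in each of 4 groups. Wild-type (WT) mice and mice labelled Gα12-/- (knockout, KO) received vehicle or acetaminophen (APAP), a painkiller that injures hepatocytes at high dose. By the study's methods all mice were fasted overnight, the dose was 300 mg/kg by intraperitoneal injection, and livers were taken 6 h later. The design asks what APAP changed in the liver and whether the KO label altered it. Counts of Gna12, the targeted gene, ranged from 1193 to 4373 in WT livers and from 2472 to 4003 in livers under the KO label, so the genotype could not be checked from these gene-level counts and the word label is kept throughout.

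Tissue factor is the membrane receptor that binds factor VII and starts clotting, and tissue factor pathway inhibitor shuts the complex down. Thrombomodulin on endothelium turns thrombin into an activator of the anticoagulant protein C, while von Willebrand factor and thrombospondin 1 bind platelets and matrix. Tissue-type and urokinase-type plasminogen activators turn the liver-made zymogen plasminogen into plasmin, which dissolves fibrin, and the urokinase receptor holds urokinase on the cell surface. In acute APAP injury, clotting within the liver and loss of liver-made plasma factors are both well known.

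Promoter sequence is shown for Plaur, the receptor transcript that rose after APAP, and for F3 and Tfpi, the initiator and inhibitor transcripts that did not pass the test. These 300-base windows run from 250 bases before to 50 bases after a RefSeq start site (table build GRCm38.p6) and are written 5′ to 3′ on the gene's strand, with the motif matches in capitals. The RefSeq table held 7 such windows for 4 of the 9 genes (F3, Plaur, Tfpi and Tfpi2). The Plaur window is chr7:24462233-24462532 on the plus strand, the F3 window chr3:121723287-121723586 on the plus strand and the first Tfpi window chr2:84476710-84477009 on the minus strand. The Plaur window lies inside the span that RefSeq gives the gene.
Plaur: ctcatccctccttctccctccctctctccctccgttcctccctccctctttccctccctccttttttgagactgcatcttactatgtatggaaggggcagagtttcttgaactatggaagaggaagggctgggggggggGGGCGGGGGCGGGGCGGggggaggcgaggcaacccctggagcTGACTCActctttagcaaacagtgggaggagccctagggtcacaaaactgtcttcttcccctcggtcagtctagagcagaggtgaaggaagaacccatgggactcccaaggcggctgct
F3: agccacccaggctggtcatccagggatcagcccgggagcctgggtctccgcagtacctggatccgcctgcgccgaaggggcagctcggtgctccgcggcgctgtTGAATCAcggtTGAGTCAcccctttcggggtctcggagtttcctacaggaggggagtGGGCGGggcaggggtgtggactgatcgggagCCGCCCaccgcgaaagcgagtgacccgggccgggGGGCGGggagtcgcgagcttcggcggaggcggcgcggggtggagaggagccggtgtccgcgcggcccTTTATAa
Tfpi: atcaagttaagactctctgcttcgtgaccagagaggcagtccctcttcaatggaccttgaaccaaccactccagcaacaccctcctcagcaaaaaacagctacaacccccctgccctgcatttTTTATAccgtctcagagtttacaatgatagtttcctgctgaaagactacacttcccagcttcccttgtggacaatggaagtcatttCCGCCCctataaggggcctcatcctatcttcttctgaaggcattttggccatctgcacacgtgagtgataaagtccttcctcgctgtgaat

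Several motifs were searched on both strands. For the factors AP-1, CREB and EGR1 these were TGANTCA, the CRE letters TGACGTCA and GCGNGGGCG respectively. The letters of the GC box were GGGCGG. For TEAD factors GGAATG was used. The TATA box was written as TATAAA, and the CArG box and the NF-kB site were searched as well. The Plaur window held 1 AP-1 match from -69 to -63 relative to the start site, 3 GC boxes and 1 EGR1 match that overlaps 2 of them. The F3 window held 2 AP-1 matches, from -146 to -140 and from -135 to -129, with 3 GC boxes and a TATA match after the start site. The Tfpi window held 1 GC box, 1 TATA match and no AP-1 letters. Of 32851 promoter windows of this length, 7.81% held an AP-1 match, 35.7% a GC box, 5.55% an EGR1 match and 13.6% a TATA match. These matches are descriptions of letters, and the AP-1 letters stood both before a transcript that rose and before one that did not pass the test.

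Depth was 49737950 to 69566079 counted reads per liver. Read counts scaled to library size and to a TMM factor for each liver are given as CPM. One APAP liver, WT replicate 1, stood apart. Its 5 erythroid markers summed to 17366 CPM, against 253 to 749 in the other 11 livers, and its 7 neutrophil markers to 117 CPM against 0.169 to 16.5. The 6 platelet and megakaryocyte markers summed to 22.6 CPM there and to 2.75 to 5.05 elsewhere, and the 7 endothelial markers to 164 CPM against 102 to 146. Among vehicle livers, WT replicate 2 had a neutrophil sum of 13.9 CPM, against 0.169 and 0.22 in the other WT vehicle livers. The 6 hepatocyte markers, all counted in every liver, summed to 135012 CPM in WT APAP replicate 1 and to between 64965 and 92793 CPM in the other 11 livers. That liver also had the highest stellate sum, at 320 CPM against 134 to 239. Its sinusoidal endothelial sum was the highest too, at 303 CPM against 166 to 247. Its sum of the 5 genes listed as monocyte markers (Ccr2, Ly6c2, Chil3, Fn1 and Plac8) was the lowest, at 883 CPM against 1105 to 2794. That sum was not split by gene, so it gives no measure of monocyte number. The TMM factor of WT APAP replicate 1 was 0.75 against 0.892 to 1.13 in the other 11 livers, and a lower factor raises every CPM of a liver. The part of this factor in its marker sums was not tested. The 4 cholangiocyte markers summed to 18.0 to 40.3 CPM in APAP livers, again highest in that liver, and to 2.54 to 7.71 CPM in vehicle livers.

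Levels in TPM, which scales reads to transcript length and library size, set the genes in an order in the 6 vehicle livers. Tfpi2, a Kunitz-type inhibitor of plasmin and other serine proteases, was highest at 21.2 ± 2.03 TPM (SD, n = 6), and its lowest liver lay above the highest liver of every other gene. Tfpi stood at 2.68 ± 0.706 TPM, Thbd at 2.16 ± 0.961, F3 at 1.86 ± 0.851 and Vwf at 1.24 ± 0.438, and neighbours among these 4 overlapped. Plau at 0.484 ± 0.107 TPM lay below Vwf in 6 of 6 vehicle livers, followed by Plaur at 0.469 ± 0.414, Thbs1 at 0.153 ± 0.136 and Plat at 0.15 ± 0.14, whose ranges overlapped with their neighbours. After APAP the mean TPM of Thbd was 9.26 ± 3.96 (SD, n = 6), of Plaur 4.31 ± 2.17 and of Thbs1 3.89 ± 4.8, above the 2.69 ± 0.977 TPM of F3. Thbs1 reached 13.3 TPM in WT APAP replicate 1, and its mean over the other 5 APAP livers was 2.01 TPM, below the 2.81 TPM of F3 and the 2.60 TPM of Tfpi in those livers.

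**Figure D1:**
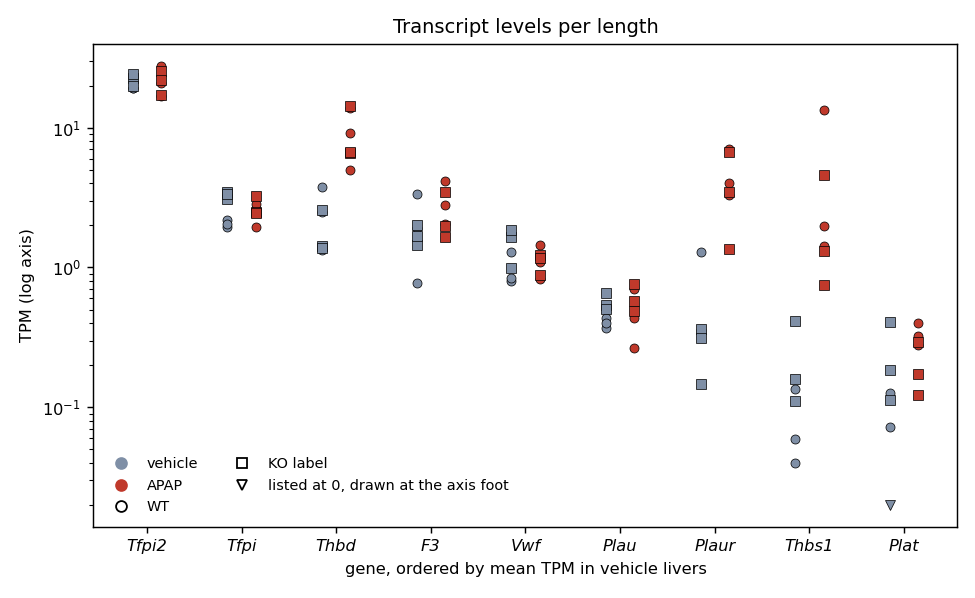
TPM of the 9 genes in each of 12 livers on a log axis, ordered by the mean in vehicle livers; circles are WT, squares the KO label, grey vehicle and red APAP, and a triangle marks the liver in which Plat is listed at 0. Tfpi2 lies near 21.2 TPM in vehicle livers, while Thbd, Plaur and Thbs1 shift upward with APAP.

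APAP was first compared with vehicle over both labels, 6 livers against 6 with the label as a term. Transcripts of Plaur, Thbd and Thbs1 rose, and the other 6 genes did not pass the test at an adjusted p of 0.05. These 3 of 9 stand beside a background of 14% of 16509 tested genes called higher and 11.4% called lower. The calls over all genes were higher in 55.1% of cases, against 43.2% when quantile-normalised log2(TPM + 1) was tested with limma. The median log2 fold change was 0.44 over the 9 genes and 0.01 over all tested genes, and all 9 passed the filter on low counts. A bulk liver cannot tell fewer cells of a type apart from less RNA per cell. The cholangiocyte marker sum was also higher in all 6 APAP livers than in all 6 vehicle livers. Its order among the APAP livers differed from that of Plaur, Thbd and Thbs1. KO-labelled replicate 3, second of 6 in CPM for these genes, had a sum of 18.1 CPM, near the lowest of 18.0. The part of the cholangiocyte sum in the rise of the 3 genes was not tested.

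**Figure D2:**
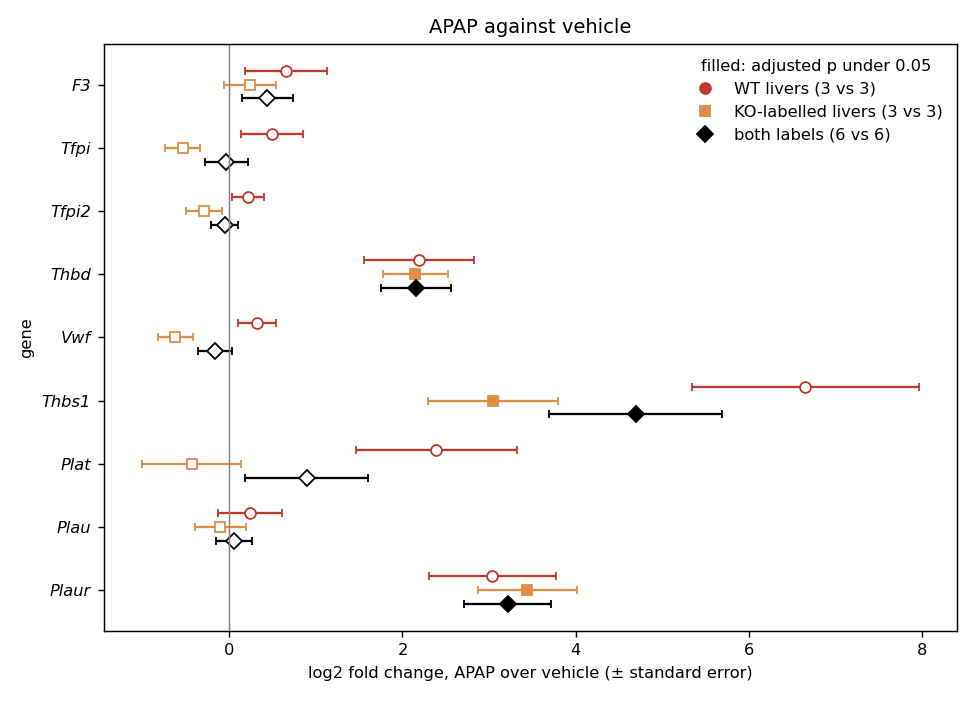
Log2 fold change of APAP over vehicle with its standard error for the 9 genes, in WT livers (circles), KO-labelled livers (squares) and both labels (diamonds); filled symbols passed an adjusted p of 0.05. Thbs1, Plaur and Thbd lie far to the right in each comparison, and Tfpi, Tfpi2 and Vwf lie close to 0 over both labels.

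Clot initiation was read from F3, which encodes tissue factor (gene 14066, chr3:121723537-121735052, mm10). F3 measured 2.08, 1.01 and 4.13 CPM in the WT vehicle livers and 3.87, 4.21 and 3.20 CPM in the WT APAP livers. Under the KO label it measured 1.93, 1.64 and 2.39 CPM with vehicle and 3.29, 1.71 and 1.98 CPM with APAP. Vehicle and APAP livers overlapped under both labels, and WT vehicle replicate 3 was nearly as high as the highest APAP liver. The change over both labels was 0.44 ± 0.29 on the log2 scale (SE), with an adjusted p of 0.309.

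Tfpi, the inhibitor of the tissue factor and factor VII complex (gene 21788, chr2:84432855-84476775), measured 3.16, 3.60 and 3.71 CPM with vehicle and 7.65, 3.85 and 3.16 CPM with APAP in WT livers. Under the KO label it measured 4.48, 5.43 and 6.43 CPM with vehicle and 4.37, 3.60 and 3.19 CPM with APAP. In CPM the KO-labelled vehicle livers were all higher than the KO-labelled APAP livers. In TPM these groups overlapped, at 3.09 to 3.48 with vehicle and 2.45 to 3.26 with APAP. Among WT livers, replicates 1 and 2 after APAP lay above the vehicle livers and replicate 3 lay at the low end of their range. Over both labels the log2 change of Tfpi was -0.04 ± 0.25, with an adjusted p of 0.934. Within the KO label it was -0.54 ± 0.20, with an adjusted p of 0.0900.

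Tfpi2 (gene 21789, chr6:3962589-3988978) measured 18.4 to 24.5 CPM in WT vehicle livers, 21.1 to 27.9 CPM in WT APAP livers, 19.1 to 29.9 CPM in KO-labelled vehicle livers and 14.8 to 21.2 CPM in KO-labelled APAP livers. All 4 ranges overlapped in part. Its change over both labels was -0.05 ± 0.16 on the log2 scale, with an adjusted p of 0.840.

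The ratio of F3 to Tfpi TPM within a liver does not depend on how libraries are scaled. It was 0.879, 0.402 and 1.63 in WT vehicle livers and 0.778, 1.48 and 1.44 in WT APAP livers. With the KO label it was 0.652, 0.412 and 0.501 after vehicle and 1.06, 0.665 and 0.809 after APAP. Each KO-labelled APAP liver lay above all 3 KO-labelled vehicle livers, while the WT groups overlapped. The mean log2 ratio was higher by 0.60 after APAP over 6 against 6 livers (SD 0.48 and 0.78), with p = 0.143 in a two-sided exact permutation test whose smallest possible p is 0.00216. This test exchanged livers without regard to label, so differences between labels were part of the spread. Without WT vehicle replicate 3 the difference was 0.86, with an exact permutation p of 0.026, and leaving out each of the other 11 livers gave exact permutation p-values from 0.108 to 0.255.

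Thbd, which encodes the thrombin receptor thrombomodulin (gene 21824, chr2:148404471-148408188), rose 4.46-fold over both labels. WT livers measured 5.37, 9.56 and 3.25 CPM with vehicle and 51.6, 9.89 and 20.7 CPM with APAP. KO-labelled livers measured 2.70, 5.76 and 3.87 CPM with vehicle and 12.5, 13.6 and 28.1 CPM with APAP. All 6 APAP livers exceeded all 6 vehicle livers, although WT APAP replicate 2 at 9.89 CPM was barely above WT vehicle replicate 2 at 9.56 CPM. The log2 change was 2.16 ± 0.40, with an adjusted p of 0.00191, and leaving out any single liver kept it between 1.79 and 2.37.

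Among the platelet-binding genes, Thbs1 (gene 21825, chr2:118111876-118127133) had the largest fold change of the 9 over both labels and in WT, and Vwf did not pass the test. Thbs1 encodes thrombospondin 1, a secreted matrix protein that binds CD36 and CD47. WT livers measured 0.47, 0.25 and 0.16 CPM with vehicle and 78.1, 6.18 and 5.07 CPM with APAP. KO-labelled livers measured 0.34, 1.48 and 0.71 CPM with vehicle and 3.88, 2.38 and 14.3 CPM with APAP. All 6 APAP livers lay above all 6 vehicle livers, and the values spread more widely among APAP livers than for any other gene of the group. The log2 change over both labels was 4.70 ± 1.00, a 25.9-fold rise with an adjusted p of 0.00448. It was 3.54 without WT APAP replicate 1, with an adjusted p of 0.000664, and 5.31 without KO-labelled vehicle replicate 2.

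Vwf, made by endothelium and megakaryocytes (gene 22371, chr6:125552948-125686679), measured 6.59, 4.88 and 4.87 CPM with vehicle and 7.41, 6.88 and 5.95 CPM with APAP in WT livers. Under the KO label it measured 7.46, 9.81 and 6.54 CPM with vehicle and 5.52, 5.66 and 4.16 CPM with APAP. In CPM, APAP livers were lower than vehicle livers without overlap under the KO label, and the WT groups overlapped. In TPM the KO-labelled groups overlapped too, at 0.985 to 1.85 with vehicle and 0.889 to 1.23 with APAP. Over both labels the log2 change was -0.16 ± 0.20, with an adjusted p of 0.583, and within the KO label it was -0.62 ± 0.20, with an adjusted p of 0.0569. The KO-labelled change passed at an adjusted p of 0.0284 with the DESeq2 Wald test, which called 12.7% of genes lower there. The 7 endothelial markers summed to 132 to 145 CPM in KO-labelled vehicle livers and 102 to 131 CPM in KO-labelled APAP livers, and their part in the Vwf values was not tested.

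For fibrinolysis, the receptor transcript rose while those of both activators did not pass the test. Plaur, the urokinase receptor (gene 18793, chr7:24460937-24475970), measured 0.34, 1.36 and 0.40 CPM in WT vehicle livers and 10.7, 2.68 and 3.72 CPM in WT APAP livers. Under the KO label it measured 0.32, 0.33 and 0.20 CPM with vehicle and 2.85, 1.12 and 5.34 CPM with APAP. The groups did not overlap within either label. Across labels, 5 of 6 APAP livers lay above all vehicle livers, since WT vehicle replicate 2 exceeded KO-labelled APAP replicate 2. The log2 change over both labels was 3.22 ± 0.50, a 9.30-fold rise with an adjusted p of 0.000647. Neutrophils carry this receptor, and both the highest APAP liver and the highest vehicle liver for Plaur were those with the highest neutrophil sums in their treatment. KO-labelled APAP replicate 3, second for Plaur, had a neutrophil sum of 5.02 CPM, below the 6.79 and 16.5 CPM of WT APAP replicates 2 and 3, in which Plaur was lower. The part of neutrophils in these values was not tested. Without WT APAP replicate 1 and WT vehicle replicate 2, a choice made after seeing the data, the log2 change was 3.31, with an adjusted p of 0.000152.

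Plau, which encodes urokinase (gene 18792, chr14:20836662-20843388), stayed between 0.51 and 0.94 CPM in all 12 livers, from 27 to 66 reads. Vehicle and APAP livers overlapped under both labels, and the log2 change was 0.06 ± 0.21, with an adjusted p of 0.875. Plat, the tissue-type activator (gene 18791, chr8:22757722-22782848), measured 0, 0.15 and 0.22 CPM in WT vehicle livers and 1.03, 0.39 and 0.51 CPM in WT APAP livers. The liver with 0 reads allows up to 0.0563 CPM by a limit of 3 counts, which covers counting error only. KO-labelled livers measured 0.15, 0.64 and 0.35 CPM with vehicle and 0.17, 0.26 and 0.40 CPM with APAP. WT livers did not overlap between treatments and KO-labelled livers did, at no more than 52 reads per liver. The log2 change was 0.89 ± 0.71 over both labels, with an adjusted p of 0.400.

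**Figure D3:**
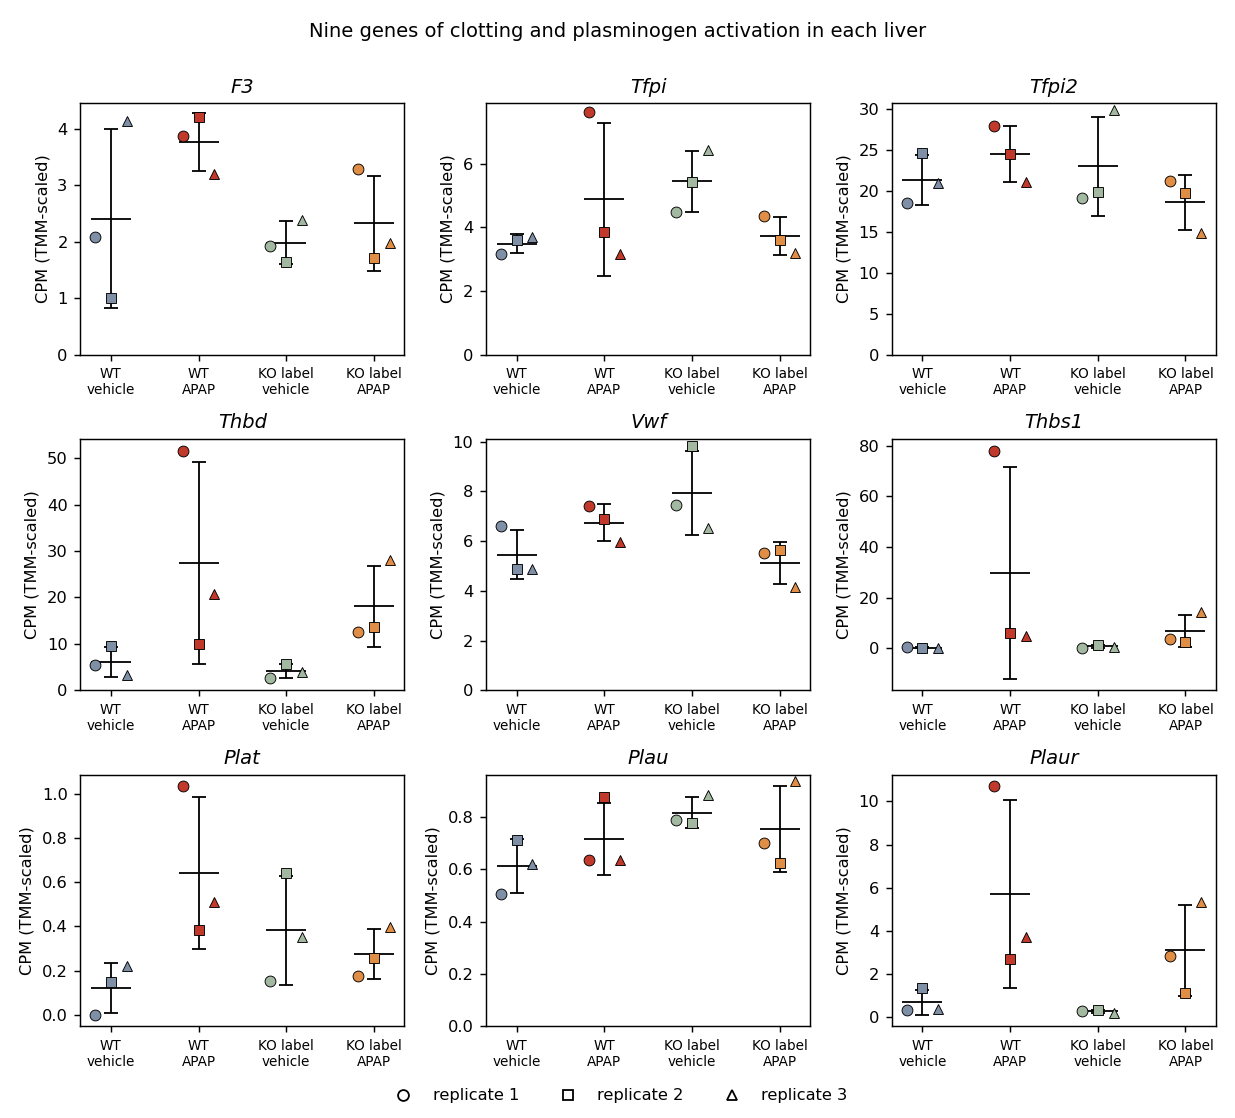
TMM-scaled CPM of each of the 9 genes in each of 12 livers, with the mean (line) and SD (bars, n = 3) of each group; marker shapes give the replicate number, which does not link animals across groups. WT APAP replicate 1 is highest for Thbs1 at 78.1 CPM, Thbd at 51.6 CPM and Plaur at 10.7 CPM.

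In CPM, the 3 genes that rose ranked the APAP livers alike at the top. There WT replicate 1 was the highest and KO-labelled replicate 3 the second of 6 APAP livers for each of Plaur, Thbd and Thbs1. The order of the other 4 livers differed between the genes. In TPM, Thbd was highest in KO-labelled replicate 3, at 14.3 against 13.8 in WT replicate 1. Plaur stood at 6.69 and 7.04 TPM in these livers, and Thbs1 at 4.62 and 13.3 TPM. KO-labelled replicate 3 had the highest erythroid sum of the KO-labelled APAP livers, 452 CPM against 253 and 413, and the highest neutrophil sum, 5.02 CPM against 0.592 and 1.82. Both sums were below those of WT replicate 1. The platelet, monocyte, stellate and mesothelial sums of KO-labelled replicate 3 were also the highest of the KO-labelled APAP livers. Its cholangiocyte, Kupffer cell, endothelial, sinusoidal endothelial and lymphocyte sums were not. Its hepatocyte sum was the lowest there, at 76785 CPM against 79990 and 80105. The part of these sums in the order of the livers was not tested.

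Within WT livers, 3 against 3, none of the 9 genes passed the edgeR test after adjustment, beside 2.05% of 15693 genes called in either direction. Plat, Plaur, Thbd and Thbs1 had an unadjusted p under 0.05 and were higher after APAP, 4 of 9 beside 10.7% of tested genes. Thbs1 was higher by 6.66 ± 1.31 on the log2 scale, with an adjusted p of 0.0507, and Plaur by 3.04 ± 0.73, with an adjusted p of 0.0840. The log2 difference of Thbd was 2.19 ± 0.63, with an adjusted p of 0.129, and that of Plat 2.39 ± 0.93, with an adjusted p of 0.233. Without WT APAP replicate 1, Thbs1 passed at a log2 change of 4.24 and an adjusted p of 0.0179, and without WT APAP replicate 2 it passed at 7.12 and 0.0369. Without WT APAP replicate 1 the log2 difference was 2.20 for Plaur, 1.34 for Thbd and 1.87 for Plat. It was 3.95 for Plaur without WT vehicle replicate 2, and for Plat 1.79 without WT vehicle replicate 1 and 3.11 without WT vehicle replicate 3. DESeq2 called Plaur and Thbd higher, beside 5.59% of genes that it called higher, and gave no adjusted p for Thbs1.

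Within the KO label, Plaur, Thbd and Thbs1 passed the test and were higher after APAP, 3 of 9 beside 13% of 15665 genes called higher. Plaur rose by 3.44 ± 0.58 on the log2 scale, with an adjusted p of 0.00542, and by 2.80 without KO-labelled APAP replicate 3. Thbd rose by 2.15 ± 0.37, with an adjusted p of 0.00626. Thbs1 rose by 3.04 ± 0.75, with an adjusted p of 0.0231. The Thbs1 call was lost without APAP replicate 3 at a log2 change of 1.91 and an adjusted p of 0.0607, without vehicle replicate 1 at 2.67 and 0.0613, and without vehicle replicate 3 at 2.94 and 0.0891. Without vehicle replicate 2 its log2 change was 3.74. The call was also lost in a single fit of 12 livers, with an adjusted p of 0.0844, and in limma on log2(TPM + 1), with an adjusted p of 0.0706.

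The labels were then compared within each treatment. After APAP, 0 of 9 genes passed the edgeR test in WT against KO-labelled livers, beside 0.0309% of genes called, and 0 had an unadjusted p under 0.05. DESeq2 also called 0. F3 had the smallest unadjusted edgeR p of the 9, at 0.0534, and was higher in WT by 0.71 ± 0.31 on the log2 scale. Its difference was 0.53 to 1.04 with 1 liver left out. The count at an unadjusted p under 0.05 was 1 (F3) with the DESeq2 Wald test, beside 668 of 16174 genes. With no filter it was 2 (F3 and Plat), beside 786 of 25349 genes. Thbs1 was higher in WT by 2.15 ± 1.12 on the log2 scale, with an adjusted p of 0.958, and lower by 0.28 (-0.28) without WT APAP replicate 1. The Thbd difference likewise went from 0.62 to -0.24 without that liver. In CPM, Vwf was the only gene of the 9 whose WT and KO-labelled APAP livers did not overlap. Its log2 difference was 0.41 ± 0.22, with an adjusted edgeR p of 0.958. In TPM its groups overlapped, at 0.832 to 1.45 in WT and 0.889 to 1.23 under the KO label. The share of all genes without such overlap was not counted.

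In vehicle livers, 0 of 9 genes passed the edgeR test, beside 0.0262% of genes called, and DESeq2 called 0. Tfpi, Vwf and Thbs1 had an unadjusted p under 0.05 and were lower in WT, 3 of 9 beside 4.31% of tested genes. The count was 1 (Tfpi) without WT vehicle replicate 2 or without KO-labelled vehicle replicate 2. The log2 difference of Tfpi was -0.64 ± 0.20, with an unadjusted edgeR p of 0.0122. For Vwf it was -0.54 ± 0.21 with an edgeR p of 0.0355, and for Thbs1 -1.50 ± 0.63 with an edgeR p of 0.0448, with overlap in both. In CPM, all WT vehicle livers lay below all KO-labelled vehicle livers for Tfpi and for Plau. For Plaur all WT vehicle livers lay above, at a log2 difference of 1.29 ± 0.60 with an unadjusted edgeR p of 0.0670. Without WT vehicle replicate 2 the Plaur difference was 0.36. The share of all genes without such overlap was not counted. The Thbs1 difference was -0.81 without KO-labelled vehicle replicate 2.

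Whether the APAP effect differed between labels was tested with an interaction term over 12 livers, positive where the effect was larger in WT. After adjustment, 0 of 9 genes and 0% of 16509 genes passed the edgeR test, and DESeq2 called 0 of the 9. At an unadjusted p under 0.05 the terms of 4 of 9 genes stood out, all positive, beside 5.14% of all genes. That count was 1 (Vwf) without WT APAP replicate 1 or without KO-labelled APAP replicate 2, 2 without KO-labelled APAP replicate 1 or without KO-labelled vehicle replicate 2 or 3, and 2 with limma on both TPM scales. The term was 0.94 ± 0.30 for Vwf, 1.03 ± 0.42 for Tfpi, 2.83 ± 1.16 for Plat and 3.61 ± 1.56 for Thbs1, each with an adjusted p of 0.872. The Tfpi and Thbs1 terms were 0.54 and 1.20 without WT APAP replicate 1. The vehicle comparison and this term share the vehicle livers, in which Tfpi, Vwf and Thbs1 were lower in WT. For Thbd the term was 0.04 ± 0.81 and for Plaur -0.41 ± 0.98, with adjusted p-values of 0.998 and 0.952, intervals wide enough to hold sizeable differences in either direction.

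Other genes of the pathway were taken from 3 lists assembled by function. Of 16 plasma clotting factors, all tested, 7 fell and 0 rose over both labels, beside 11.4% of all genes called lower, and their median log2 change was -0.25. F7, the partner of tissue factor, fell by 0.85 ± 0.11 on the log2 scale, with an adjusted p of 0.0002. Klkb1 (plasma prekallikrein) fell by 0.84, F11 by 0.62 and F9 by 0.54, both of the latter being clotting proteases. Within the KO label, 7 of 15 tested fell and 3 rose, beside 9.6% of genes called lower and 13% called higher. Those that rose were the fibrinogen chains Fga, Fgb and Fgg, named after their values were seen, at log2 changes of 0.90 ± 0.20, 0.83 ± 0.20 and 0.91 ± 0.17 with adjusted p-values of 0.0160, 0.0230 and 0.00891. The count of 3 that rose became 1 without KO-labelled APAP replicate 3 or vehicle replicate 2, 2 without KO-labelled APAP replicate 1 or vehicle replicate 3, and 0 in one fit of 12 livers. The count of 7 that fell became 4 without KO-labelled APAP replicate 3 or without KO-labelled vehicle replicate 1 or 2. The same 3 chains were also called higher over both labels without WT vehicle replicate 2. In WT with all 6 livers the edgeR test called 0 factors, beside 2.05% of all genes called in either direction. There the DESeq2 Wald test called 1 factor lower, beside 536 of 15693 genes. The single fit of 12 livers called 2 lower, beside 555 of 16509 genes. F7 ran from 80.0 to 108 CPM in vehicle livers and from 39.3 to 65.5 CPM after APAP, without overlap.

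Of 11 tested plasma anticoagulants and fibrinolysis proteins, out of 12 listed, 6 fell and 0 rose over both labels. Beside these stand 11.4% of all genes called lower and 14% called higher. The median log2 change of the list was -0.37. The count that fell was 3 to 5 when 1 liver was left out, 3 with no filter and 4 with the replicate block. It was 3 without any 1 of WT vehicle replicate 1, WT APAP replicates 2 or 3, KO-labelled vehicle replicates 1 or 2 and KO-labelled APAP replicate 1. In WT the edgeR test called 0, beside 2.05% of all genes called in either direction. There the DESeq2 Wald test and the single fit of 12 livers each called 2 lower, beside 536 of 15693 and 555 of 16509 genes. Pros1, the cofactor of activated protein C, fell by 0.86 ± 0.12, with an adjusted p of 0.000392. Serpind1 (heparin cofactor II) fell by 0.69, Hrg (histidine-rich glycoprotein) by 0.66 and Serpinf2, the plasmin inhibitor, by 0.37. Plasminogen itself (Plg) and protein C (Proc) were the other 2 that fell, by 0.35 and 0.31, and they are named because they complete the count.

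Among 15 tested of 19 cell-surface receptors and binding partners, 5 rose and 1 fell, beside 14% and 11.4% of all genes. Procr, the endothelial protein C receptor that works with thrombomodulin, rose by 2.93 ± 0.56 on the log2 scale, with an adjusted p of 0.00237. It ran from 0.168 to 0.714 CPM in vehicle livers and from 0.927 to 11.3 CPM after APAP, without overlap. S100a10, a subunit of a plasminogen-binding complex with annexin A2, rose by 1.22, and the integrin subunits Itga5 and Itgav by 0.76 and 0.51. Itgb3 rose by 0.65 and the clearance receptor Lrp1 fell by 0.61, both named after their values were seen. The Lrp1 change had an adjusted edgeR p of 0.0488. The count that fell was 0 with no filter, with the replicate block and with limma on both TPM scales, and 0 to 3 when 1 liver was left out. The list's median was 0.18 and changed sign with the setting, from -0.05 to 0.51.

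**Figure D4:**
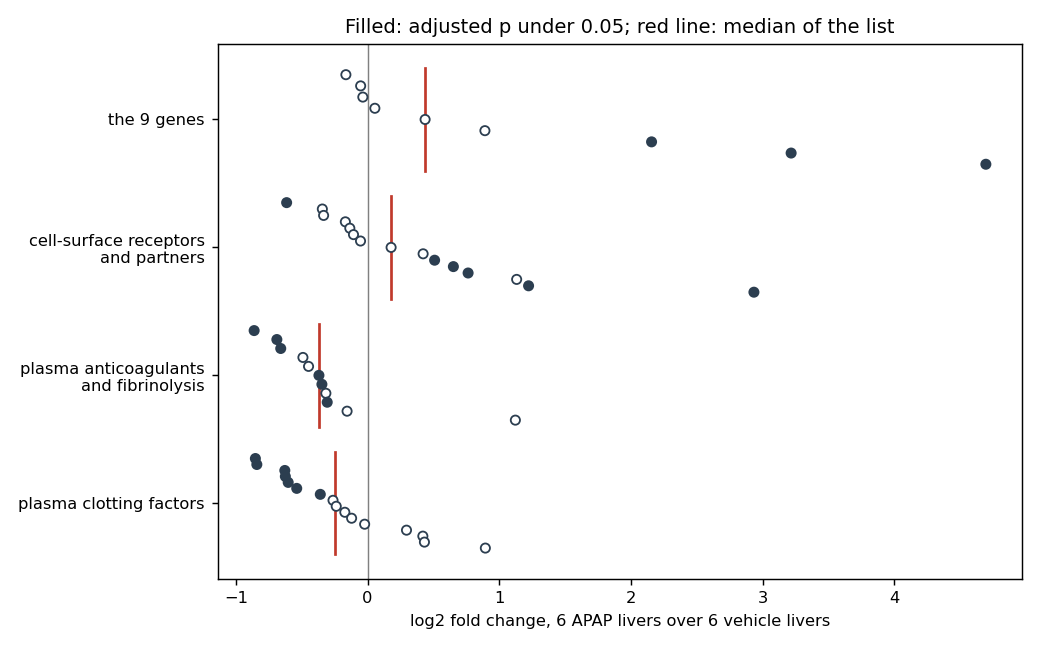
Log2 fold change of APAP over vehicle (6 against 6 livers) for each tested gene of the group of 9 and of the 3 pathway lists; filled points passed an adjusted p of 0.05 and red lines are list medians. Called plasma clotting factors and plasma anticoagulants lie below 0, and called members of the 9 above 2 on the log2 scale.

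For each gene that rose, the 3 genes with the nearest profile were taken by the root-mean-square (RMS) difference of centred log2 CPM over 12 livers, among 10912 genes. Nearest to Plaur were Akap12 at 0.57, Gm10639 at 0.59 and Sox9 at 0.63, against an RMS of Plaur itself of 1.76. Sox9 is also one of the cholangiocyte markers summed above. Tiparp at 0.37, Akap2 at 0.39 and Rell1 at 0.39 lay nearest to Thbd, whose own RMS was 1.24. Thbs1 had no comparably close profile, since Fst, Nes and Tubb6 stood at 1.03, 1.04 and 1.07 against its own RMS of 2.46.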

How the data were processed

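Polyadenylated RNA from 12 mouse livers, 3 in each of 4 groups set by the sample labels, was sequenced as stranded paired-end libraries. Per the labels, the authors used FastQC 0.11.7, Trimmomatic 0.38, HISAT2 2.1.0, Bowtie2 2.3.4.1 and StringTie 2.1.3b with build mm10. They deposited raw read counts, FPKM (not used here) and TPM per gene and liver, with replicates kept apart. The columns of the authors' own comparisons were not used. The 9 genes and all lists were chosen with earlier results of these data known. Counts were tested with edgeR 4.0.16 (quasi-likelihood F test, TMM scaling, filterByExpr, Benjamini-Hochberg adjustment over all tested genes, threshold 0.05) under R 4.3.3, and the tests were run on simulated data first. Only the groups compared entered a fit, except for the comparison over both labels and the interaction. CPM values use TMM factors over 12 livers. The F3 to Tfpi ratio was tested by exact permutation of the deposited TPM (SciPy 1.17.1). Alternatives were DESeq2 1.42.0 (its size factors and its Wald test), no filter, at least 10 counts in every library, the newer quasi-likelihood method, a single fit of 12 livers, limma 3.58.1 on quantile-normalised log2(TPM + 1) or log2(TPM + 0.1), a replicate block, and leaving out single livers. Named genes were the 9 members, up to 4 genes of each pathway list with the smallest unadjusted p over both labels, and the 3 nearest profiles of each called member among genes with a mean log2 CPM of at least 1. The labels do not say how the livers of a group were bred or processed beyond being separate livers, so p-values measure the spread between these samples.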

Additional observations from a re-analysis of the deposited data

How the results depend on the processing

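Over both labels, 3 of 9 genes were called under every alternative except at least 10 counts in every library, which left 6 genes tested and 1 called (Thbd), and the DESeq2 Wald test, which called 2 and gave no adjusted p for Thbs1. Leaving out single livers gave 3 throughout. In WT livers the count of 0 became 2 with the DESeq2 Wald test, 3 in one fit of 12 livers, 1 with the newer quasi-likelihood method or no filter, and 0 to 1 when 1 liver was left out. It was 2 without WT APAP replicate 1 and WT vehicle replicate 2, an alternative chosen after seeing the data. These settings changed the calls over all genes too. In WT the main test called 255 of 15693 genes higher, the DESeq2 Wald test 877 of 15693 and the single fit 968 of 16509. The newer method called 297 of 15693 higher, no filter 241 of 24478 and the fit without those 2 livers 435 of 15903. Under the KO label the count of 3 became 2 in one fit of 12 livers, with limma on log2(TPM + 1) and with at least 10 counts in every library, and 4 with the DESeq2 Wald test, which added Vwf. The replicate numbers did not pair the livers: 1 of 18 correlations between same-numbered livers was above 0.1. With the replicate block, the count was 1 in WT, 4 under the KO label and 3 over both labels. The F3 to Tfpi difference ranged from 0.46 to 0.86 when 1 liver was left out. The cause of these shifts was not tested, apart from the fewer genes tested under the stricter filter.

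Changes of sign arose in differences that passed no test. On the limma scales, Plau was at -0.0018 and -0.0042 in WT and -0.020 and -0.051 over both labels, the Plaur interaction was 0.24 with a constant of 1, and the Thbd interaction was -0.028 and -0.16. Without 1 liver, the log2 change ranged in KO-labelled livers from -0.099 to 0.41 for F3, -0.81 to 0.16 for Plat and -0.29 to 0.015 for Plau. Over both labels it ranged from -0.030 to 0.13 for Plau, -0.29 to 0.087 for Tfpi (-0.31 without the 2 livers above) and -0.12 to 0.079 for Tfpi2. Between labels after APAP it ranged from -0.23 to 0.13 for Plau, -0.24 to 1.09 for Thbd, -0.28 to 3.27 for Thbs1 and -0.078 to 0.65 for Tfpi, and in vehicle livers from -0.36 to 0.64 for F3 and -0.23 to 0.13 for Tfpi2. The interaction ranged from -1.26 to 0.50 for Plaur and -0.82 to 0.52 for Thbd, which was -0.33 without those 2 livers.

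Over all genes, the count of calls moved from 322 in WT to between 62 and 1523 under the other settings and 41 to 442 with 1 liver left out, from 5 to between 0 and 29 between labels after APAP, from 4 to between 0 and 137 in vehicle livers and from 0 to between 0 and 9 for the interaction. Under the KO label it moved from 3538 to between 2249 and 4325, and to 1995 with 1 liver left out. Plat was measured from at most 52 reads per liver and Plau from 27 to 66.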
